A study of Homo sapiens with 4 samples.

Results

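YAP1, its paralogue WWTR1 (the TAZ protein), 3 TEAD transcription factors and 5 of their target genes were compared between METTL3 knockdown and control PC3 cells. The 10 genes were taken by name from the deposited table of 60544 genes: YAP1, WWTR1, TEAD1, TEAD3, TEAD4, CCN1, CCN2, ANKRD1, AMOTL2 and LATS2. Each name matched 1 row, and all 10 passed the filter on low counts that kept 16802 genes. PC3 is an established human prostate cancer cell line. METTL3 is the catalytic subunit of the enzyme complex that writes N6-methyladenosine on messenger RNA. The control group carries the label shNC and the other group the label sh812, which was read as the METTL3 knockdown because the series names knockdown and control only. Each group had 2 libraries. All were poly(A) RNA from PC3 cells grown in RPMI-1640 with serum, and no drug or time point is named. The knockdown group rests on 1 label in 1 cell line. The labels do not say whether the replicates were separate cultures or clones, so the spread between these libraries may be technical. The p-values rest only on that spread, with each gene's own estimate moderated by those of other genes.

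The Hippo pathway is a kinase cascade in which the LATS kinases phosphorylate YAP and TAZ and so keep them out of the nucleus. Unphosphorylated YAP and TAZ bind DNA through TEAD factors and switch on genes of growth, adhesion and matrix, among them CCN1, CCN2 and ANKRD1. AMOTL2 and LATS2 are both targets and inhibitors of YAP and TAZ, which gives negative feedback. YAP and TAZ are controlled largely at the protein level, which RNA counts do not measure.

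TEAD factors recognise the letters GGAATG, which read CATTCC on the other strand. The 250 bases upstream of the RefSeq transcript start (GRCh38.p14) were searched for both, and 7 of the 10 genes matched the promoter table by symbol. A match was present in 4 of these 7, namely CCN2, ANKRD1, AMOTL2 and YAP1, against 13.3% of the 11358 tested genes with an entry. CCN2, ANKRD1 and AMOTL2 are among the 10 as known targets of YAP and TEAD, so these shares are descriptions and not a test. Over single windows, 11.9% of all 35116 promoters held a match and 0.94% held 2 or more matches. CCN2 held 3 matches and ANKRD1 held 2, while AMOTL2, at the inner of its starts, and YAP1 held 1 each. WWTR1, TEAD3 and LATS2 had no such letters in these windows. The CCN2 stretch is shown because it has the most matches and CCN2 was among the genes that fell. It lies at chr6:131951374-131951622 on the minus strand, and is written 5′ to 3′ along the gene with the matches in capitals.

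CCN2 upstream stretch: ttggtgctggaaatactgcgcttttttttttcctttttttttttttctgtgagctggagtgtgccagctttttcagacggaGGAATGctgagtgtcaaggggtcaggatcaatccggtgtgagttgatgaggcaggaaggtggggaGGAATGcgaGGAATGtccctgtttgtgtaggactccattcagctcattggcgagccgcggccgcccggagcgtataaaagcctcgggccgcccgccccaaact

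The matches of the other 3 genes are shown with 10 bases on either side. They set ANKRD1, a target that was not called, beside AMOTL2, which was called, and YAP1, which was not. The stretches lie at chr10:90921292-90921317 and chr10:90921200-90921225 (ANKRD1, minus strand), chr3:134374501-134374526 (AMOTL2, minus strand) and chr11:102110275-102110300 (YAP1, plus strand).

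ANKRD1, outer: caccaccaaaGGAATGgccctctcac
ANKRD1, inner: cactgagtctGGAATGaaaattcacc
AMOTL2: gaaactctcaCATTCCtggcatagca
YAP1: ggagtgtgcaGGAATGtagcaacttg

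A match is a string of letters and not a measured binding site. The CCN2 matches start 169, 104 and 95 bases upstream of the start, and the inner pair is 3 bases apart. The ANKRD1 matches start 220 and 128 bases upstream. The inner ANKRD1 match and the AMOTL2 match lie within the spans of their genes in GENCODE 29. The outer ANKRD1 match and the YAP1 and CCN2 matches lie upstream of theirs.

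Total counts ran from 31450648 to 37041330 per library, and the common biological coefficient of variation was 0.0633. METTL3 had 1682 and 1379 counts in shNC and 269 and 313 in sh812, or 18.7% of control as CPM, which goes with the labels. Of the METTL3 exons, 388 bp overlap TOX4 on the opposite strand, a gene with 3297 to 3831 counts per library. The epithelial genes KRT8, KRT18, KRT19 and EPCAM were between 69.3 and 449.9 CPM in every library, as CPM values, which scale a library's counts by its TMM-adjusted total. KLK3, a gene of differentiated prostate epithelium, had 0 counts. Of the markers of other cell types, PTPRC and DES stayed under 1 CPM, COL1A1 ran from 29.3 to 39.4 CPM, and PECAM1 was 23.8 and 23.7 CPM in shNC and 32.9 and 38.5 in sh812. KRT18, EPCAM and PECAM1 rose with the groups, and the part of any change in cell state in the results below was not tested. In bulk RNA, fewer cells of a kind and less RNA per cell cannot be told apart.

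CCN1, CCN2, TEAD1 and AMOTL2 were lower in sh812, and none of the 10 genes was called higher. Mean levels were 74.4% and 76.1% of control for the secreted proteins CCN1 and CCN2, and 85.9% and 85.5% for TEAD1 and AMOTL2. A gene was called where its p from the quasi-likelihood test of edgeR, adjusted over all genes tested, was under 0.05. By that rule 10.8% of the 16802 genes were called, 5.43% higher and 5.42% lower, against 4 of the 10 genes, all of them lower. The sh812 libraries lay wholly below the shNC libraries for 6 of the 10 and wholly above for 0, where 27.4% of all genes lay below and 26.2% above, or 53.6% in either direction. The median log2 fold change of the 10 was -0.14, against -0.0056 for all genes tested. It was -0.074 with the trend of each library on transcript length removed, -0.084 without shNC replicate 1, and between -0.21 (without sh812 replicate 2) and -0.10 with any other library left out. The genes were chosen with earlier results of these data known, so these shares are descriptions.

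**Figure D1:**
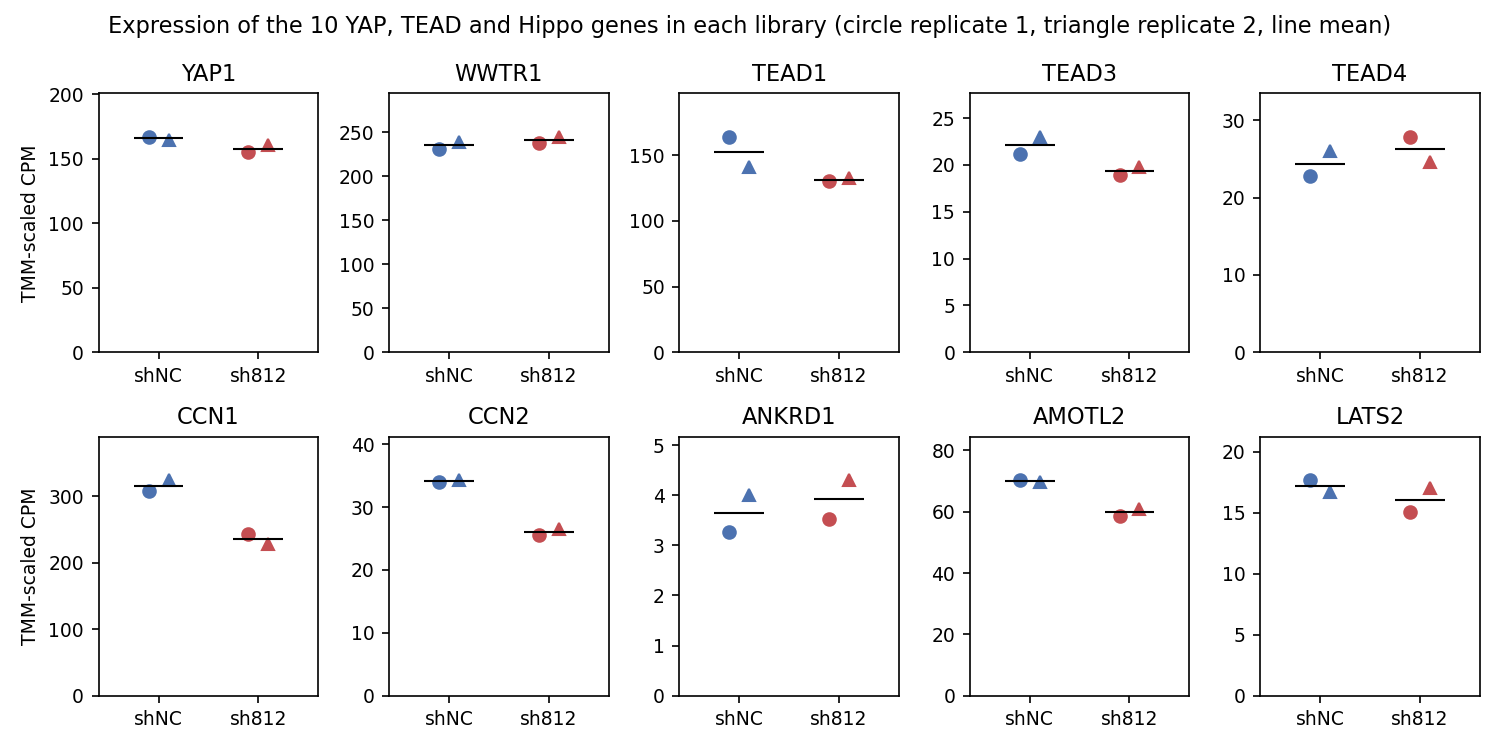
TMM-scaled CPM (vertical axis, from 0) of the 10 genes in the shNC and sh812 libraries, with circles for replicate 1, triangles for replicate 2 and a line at the mean of 2. The groups stand clearly apart for CCN1, CCN2 and AMOTL2, while TEAD1 has a wide gap between its shNC libraries, at 164.2 and 141.3 CPM.

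The coactivators YAP1 and WWTR1 did not pass the test. YAP1 was 167.3 and 165.0 CPM in shNC, and 155.3 and 160.8 in sh812. Both knockdown values lay below both controls, by a small margin. The log2 fold change of YAP1 was -0.07 (SE 0.06), with a nominal 95% interval from -0.20 to 0.05 and an adjusted p of 0.504 in edgeR. WWTR1 was 231.4 and 239.0 CPM in shNC and 237.9 and 244.98 in sh812, so the groups overlapped. Its log2 fold change was 0.04 (SE 0.06, interval -0.08 to 0.16, adjusted p = 0.754 in edgeR), and scaling by library size alone gave -0.0067. Neither interval reaches the log2 fold change fitted for CCN1, -0.43.

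Of the 3 TEAD factors among the 10 genes, which carry YAP and TAZ to DNA, TEAD1 was the most abundant per length and the only gene called. TEAD1 was 164.2 and 141.3 CPM in shNC and 130.2 and 132.4 in sh812. The sh812 libraries were close together and below both controls, but the gap between the controls was as wide as the group difference. The log2 ratio of shNC replicate 2 to replicate 1 was -0.22, and the log2 fold change of sh812 against shNC was -0.22 (SE 0.07, adjusted p = 0.0372 in edgeR). The size of the TEAD1 change moved with the control libraries. It was -0.11 (adjusted p = 0.299) without shNC replicate 1 and -0.32 (adjusted p = 1.95e-06) without shNC replicate 2. Without sh812 replicate 1 or 2 it was -0.21 and -0.23, close to the value from all libraries, with adjusted p-values of 0.287 and 0.186 in fits that called fewer genes over the whole table. TEAD1 has a long transcript, 8477 bp, longer than 92.6% of the tested genes with a coding transcript. Across 11374 genes the change correlated with transcript length (Spearman -0.34), and so did the difference between the control libraries, replicate 2 against replicate 1 (-0.36), values that share libraries and describe them only. With each library's length trend removed, TEAD1 had a log2 fold change of -0.13 (adjusted p = 0.178).

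TEAD3 was 21.2 and 23.0 CPM in shNC and 18.9 and 19.8 in sh812. Its groups did not overlap, but the log2 fold change of -0.19 (SE 0.10) had an adjusted p of 0.269 in edgeR, with an interval from -0.41 to 0.02. TEAD4 was 22.8 and 26.0 CPM in shNC and 27.9 and 24.6 in sh812, with overlapping groups and a log2 fold change of 0.11 (SE 0.10, interval -0.11 to 0.32, adjusted p = 0.581 in edgeR). TEAD2, named here outside the 10 to complete the family and chosen after its values were seen, was 62.9 and 65.5 CPM in shNC and 73.3 and 72.0 in sh812. Its log2 fold change was 0.18 (SE 0.07, adjusted p = 0.101 in edgeR). The fitted values of the family thus lay on both sides of 0, and whether they differ from each other was not tested.

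CCN1 (formerly CYR61) and CCN2 (formerly CTGF) encode secreted matricellular proteins and are the most used readouts of YAP and TAZ activity. CCN1 was 307.3 and 324.1 CPM in shNC and 242.5 and 227.4 in sh812. The groups were well apart, with 316 ± 11.9 CPM (SD, n = 2) against 235 ± 10.6 CPM (SD, n = 2), or 74.4% of control. The log2 fold change of CCN1 was -0.43 (SE 0.06, adjusted p = 3.57e-05 in edgeR), and it was the 94th smallest p-value of the 16802 genes. CCN2 was 34.04 and 34.28 CPM in shNC and 25.5 and 26.5 in sh812. The control libraries were nearly equal, and the knockdown group stood at 76.1% of control. The log2 fold change of CCN2 was -0.39 (SE 0.09, adjusted p = 0.0059 in edgeR).

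CCN1 kept its direction and its call under each of the 14 alternatives, with log2 fold changes from -0.47 to -0.38. CCN2 kept its call in 13 of 14, and without sh812 replicate 1 its adjusted p was 0.107 at a log2 fold change of -0.37. Both have transcripts shorter than the median of 3467 bp (2290 bp for CCN1 and 2339 bp for CCN2). With the length trend removed their log2 fold changes were -0.47 and -0.43.

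ANKRD1, a nuclear and sarcomeric ankyrin repeat protein and a common YAP reporter, was low in these cells. It had 124 and 127 counts in shNC and 124 and 154 in sh812, or 3.27 and 4.02 CPM against 3.53 and 4.30. The groups overlapped, and each group spread as widely as the other. The log2 fold change of ANKRD1 was 0.11 (SE 0.22, adjusted p = 0.814 in edgeR), and its interval, from -0.33 to 0.55, excludes a fall as large as that fitted for CCN1 or CCN2 at the nominal 95% level. Whether ANKRD1 differed from CCN1 or CCN2 was not itself tested, and its fitted sign turned without shNC replicate 1 (-0.035) or sh812 replicate 2 (-0.042).

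The feedback genes AMOTL2 and LATS2 differed in their calls. AMOTL2, a scaffold that holds YAP in the cytoplasm and promotes its phosphorylation, was 70.3 and 69.7 CPM in shNC and 58.7 and 61.0 in sh812, so that both knockdown values were below both controls. Its log2 fold change was -0.23 (SE 0.07, adjusted p = 0.0403 in edgeR). That adjusted p lay near the threshold, and was 0.0515 without a low-count filter, 0.0562 with DESeq2, 0.0898 with the length trend removed (log2 fold change -0.17), 0.391 with sh812 replicate 1 left out (-0.20) and 0.193 with replicate 2 left out (-0.26). LATS2, a kinase that phosphorylates YAP and TAZ, was 17.7 and 16.7 CPM in shNC and 15.1 and 17.1 in sh812. The groups overlapped, and the log2 fold change was -0.10 (SE 0.11, interval -0.33 to 0.14, adjusted p = 0.666 in edgeR). The difference between AMOTL2 and LATS2 was not tested.

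**Figure D2:**
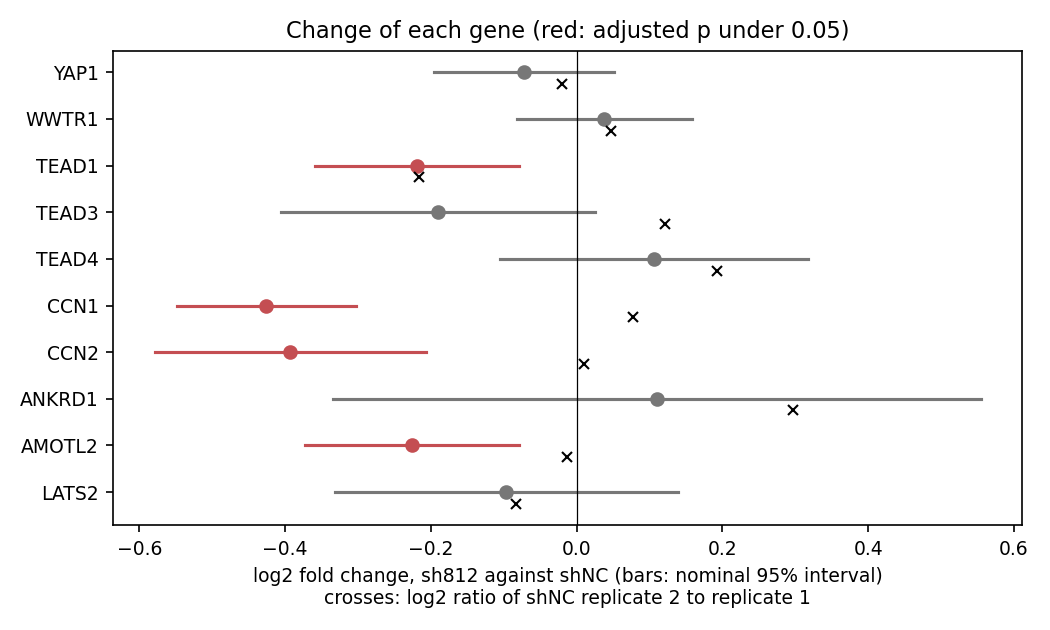
Log2 fold change of each gene, sh812 against shNC (horizontal axis), with nominal 95% intervals as bars, red where the adjusted p was under 0.05, and crosses at the log2 ratio of the 2 shNC libraries. The cross of TEAD1 lies just below its own point, both near -0.22 on the horizontal axis, while those of CCN1, CCN2 and AMOTL2 lie far to the side of theirs.

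Levels were compared between genes as CPM per kb of merged exon in GENCODE 29, in the shNC libraries. CCN1 stood highest, at 125.2 and 132.0 CPM per kb. WWTR1 followed at 27.5 and 28.4 and YAP1 at 26.6 and 26.2, so the coactivators had similar levels that did not overlap. TEAD1 (15.97 and 13.8) and CCN2 (14.6 and 14.7) did not differ beyond their spread. AMOTL2 was at 11.8 and 11.6 and TEAD4 at 10.0 and 11.5, a gap smaller than the spread of TEAD4. TEAD3 stood at 6.95 and 7.56, LATS2 at 3.17 and 2.99 and ANKRD1 at 1.65 and 2.03, each apart from its neighbours. The length used matters: per kb of the longest coding transcript, WWTR1 was at 46.8 and YAP1 at 30.8 in shNC, and AMOTL2 (15.5) stood above CCN2 (14.6). On that scale the shNC mean of TEAD1 was 18.0, also above CCN2. In sh812 the mean of CCN1 was 95.7 CPM per kb of merged exon, still the highest of the 10, and CCN2 had a mean of 11.1, with libraries (10.9 and 11.3) inside the range of TEAD4 (12.3 and 10.8).

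**Figure D3:**
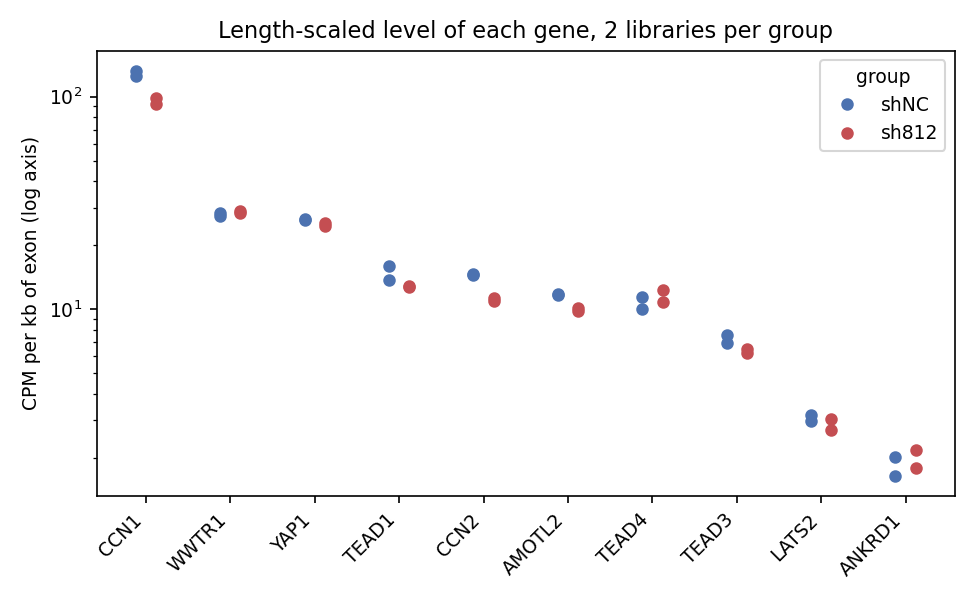
CPM per kb of merged exon on a log axis for the 10 genes, ordered by their shNC mean, with 2 points per group (blue shNC, red sh812). CCN1 is highest, at 128.6 in shNC, and ANKRD1 lowest, at 1.84.

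The transcripts were also searched, on the sense strand of the longest coding transcript, for GGACT, a common form of the motif that METTL3 methylates. The letters were present in 92.4% of the 13237 tested genes with such a transcript, at a median of 0.925 per kb and a middle range from 0.569 to 1.38. CCN1 held 5, or 2.18 per kb, the highest density of the 10. AMOTL2 held 7 (1.55 per kb) and LATS2 held 8 (1.45 per kb), densities also above that range. CCN2 held 0. The other 6 genes held from 1 to 5, at densities from 0.505 (ANKRD1) to 1.18 per kb (TEAD4). By density, CCN1 and CCN2 were thus the highest and the lowest of the 10, and neither value says whether any site is methylated.

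By position in GENCODE 29 (GRCh38), CCN1 lies on chromosome 1 from 85580761 to 85583962, CCN2 on chromosome 6 from 131948176 to 131951373, TEAD1 on chromosome 11 from 12674591 to 12944483, and AMOTL2 on chromosome 3 from 134355874 to 134375479. YAP1 lies on chromosome 11 from 102110461 to 102233423 and WWTR1 on chromosome 3 from 149517235 to 149736714. Exons of YAP1, WWTR1 and CCN2 overlap antisense genes, and those of AMOTL2 overlap the pseudogene RPL39P5. These neighbours had at most 46 counts in a library (WWTR1-AS1), against 7559 or more for WWTR1. Whether reads were counted by strand is not given in the sources used here.

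The rest of the pathway was read from 2 lists. The first, of 35 Hippo regulators, included kinases, scaffolds, cadherins, phosphatase-complex subunits, TEAD cofactors and also TEAD2. Of the 35, 33 passed the filter, 4 were called lower and 0 higher. The share called in either direction was near the 10.8% of all genes. By direction, 5.42% of all genes were called lower and 5.43% higher. At an unadjusted p under 0.05, 2 were higher and 9 lower, where 11.9% of all genes were higher and 12.9% lower. DCHS1, with 0 to 8 counts, and VGLL1, with 0, were not tested. The median log2 fold change was -0.08, but 0.0049 with the length trend removed and -0.0056 without shNC replicate 1. The core kinases and adaptors STK3, STK4, SAV1, LATS1, MOB1A and MOB1B, and the tumour suppressor NF2, were not called, with log2 fold changes from -0.08 (MOB1B) to 0.14 (SAV1).

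The 4 regulators called lower act upstream of the kinases or beside the TEADs. FRMD6, a membrane scaffold that promotes Hippo signalling, was 340.1 and 326.3 CPM in shNC and 247.3 and 235.2 in sh812 (log2 fold change -0.47, SE 0.06, adjusted p = 7.99e-06 in edgeR). DLG5, a polarity scaffold, was 280.4 and 256.0 CPM in shNC and 211.4 and 212.3 in sh812 (-0.34, SE 0.06, adjusted p = 0.000587 in edgeR). Both kept their call under each alternative.

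VGLL4, which competes with YAP for TEAD, was 44.6 and 46.0 CPM in shNC and 30.9 and 35.9 in sh812 (log2 fold change -0.44, SE 0.09, adjusted p = 0.00193 in edgeR). Without sh812 replicate 1 its log2 fold change was -0.33 (adjusted p = 0.115), and 1596 bp of its exons overlap ATG7 on the opposite strand, a gene with 1848 to 2159 counts per library. FAT1, a giant cadherin, was 106.0 and 99.7 CPM in shNC and 88.6 and 89.4 in sh812 (log2 fold change -0.21, SE 0.07, adjusted p = 0.0409 in edgeR). The FAT1 change was smaller, and not called, with the length trend removed (-0.11, adjusted p = 0.247) and without shNC replicate 1 (-0.16, adjusted p = 0.105). It was of like size but not called with DESeq2 (-0.21, adjusted p = 0.0515), without sh812 replicate 1 (-0.20, adjusted p = 0.341) and without sh812 replicate 2 (-0.22, adjusted p = 0.259). 

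The second list held 17 other genes of a published YAP and TAZ target signature. Of the 16 tested, 4 were called lower and 0 higher, where 5.42% of all genes were called lower and 5.43% higher. A fitted value below 0 was found for 14 of the 16, or 87.5%, against 51% of all genes. At an unadjusted p under 0.05, 5 were lower and 0 higher, where 12.9% of all genes were lower and 11.9% higher. FOXF2 had 0 to 6 counts and was not tested. The sh812 libraries lay wholly below shNC for 12 of the 16, where 27.4% of all genes did so, and the median log2 fold change was -0.11. It was -0.14 with the length trend removed.

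IGFBP3, a secreted carrier of insulin-like growth factors, changed most. It was 639.3 and 687.4 CPM in shNC and 272.9 and 328.0 in sh812, or 45.3% of control (log2 fold change -1.14, SE 0.07, adjusted p = 2.95e-11 in edgeR). CCDC80, a secreted matrix protein, was 81.8 and 72.8 CPM in shNC and 44.3 and 48.9 in sh812 (-0.73, SE 0.08, adjusted p = 6.77e-07 in edgeR). NT5E, a cell-surface enzyme that makes adenosine, was 85.2 and 83.9 CPM in shNC and 61.2 and 66.0 in sh812 (-0.41, SE 0.07, adjusted p = 0.000367 in edgeR). All 3 kept their call under each alternative.

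CRIM1, a membrane protein that binds bone morphogenetic proteins, was 166.7 and 156.9 CPM in shNC and 140.5 and 130.5 in sh812. Its log2 fold change was -0.26 (SE 0.06, adjusted p = 0.00961 in edgeR), and it was -0.31 (adjusted p = 0.0515) with sh812 replicate 1 left out and -0.21 (adjusted p = 0.26) with sh812 replicate 2 left out. Some other targets of the signature were close to 0. MYOF, a membrane repair protein, had a log2 fold change of -0.00064 (SE 0.06) and DOCK5, an activator of Rac, 0.00086 (SE 0.08). AXL, a receptor tyrosine kinase, had -0.08 (SE 0.06), with both sh812 libraries below both controls. Uncalled targets also lay further below 0, down to -0.39 (SE 0.19) for RBMS3. MYOF, AXL, DOCK5 and RBMS3 were picked once their values were known. Among the targets that fell, IGFBP3 and CCDC80 are secreted and NT5E and CRIM1 sit at the cell surface, as background.

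**Figure D4:**
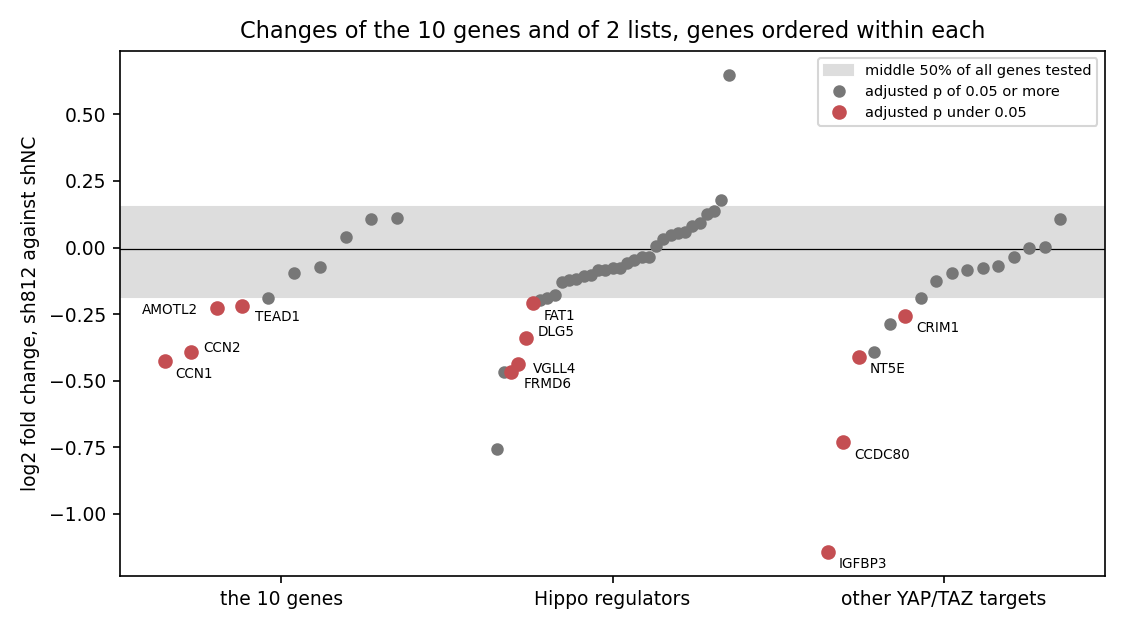
Log2 fold change (vertical axis) of the 10 genes, the 33 tested Hippo regulators and the 16 tested targets, ordered within each column, with called genes in red and the middle 50% of all genes tested, from -0.19 to 0.15, as a grey band. All 12 called genes lie below the band, with IGFBP3 lowest at -1.14.

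**Figure D5:**
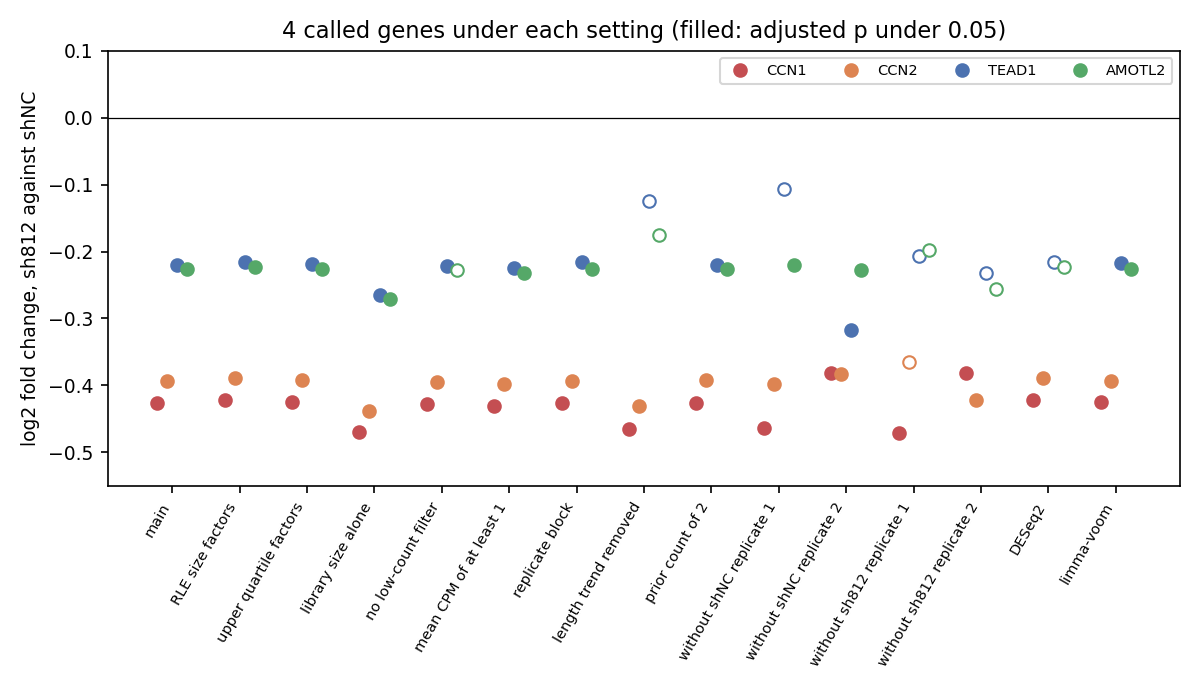
Log2 fold change (vertical axis) of the 4 called members of the 10 under TMM with all libraries and under each of the 14 alternatives (horizontal axis), filled where the adjusted p was under 0.05. CCN1 is filled throughout, CCN2 is open without sh812 replicate 1, and TEAD1 and AMOTL2 are each open in 5 settings.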

How the data were processed

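Poly(A) RNA of 4 PC3 libraries, 2 labelled shNC and 2 labelled sh812, had been sequenced as paired reads from a dUTP library. The authors deposited raw read counts per gene, whole numbers that they had not normalized. The submitters' processing notes name fastp, STAR 2.7.1a, featureCounts, DESeq2 and hg38. Neither the annotation release nor whether reads were counted by strand is stated: they are not given in the sources used here. Replicates differed by more than sampling noise (chi-square per gene 8.43 in shNC and 4.51 in sh812), so each library was counted once.

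The test was that of edgeR 4.0.16 under R 4.3.3 (filterByExpr, TMM, glmQLFit and glmQLFTest, no covariate), with Benjamini-Hochberg adjustment over all genes tested. Fold changes are fitted with a prior count of 0.125. Standard errors come from the F statistic, and the nominal 95% intervals, unadjusted, from them. The test moderates each gene's spread, with 2 residual degrees of freedom, toward that of other genes. A call therefore does not rest on the gene's own spread alone. Gene models and lengths come from GENCODE 29 and promoters from RefSeq. The alternatives were 3 other scalings, 2 other filters, DESeq2 1.42.0, limma-voom (limma 3.58.1), the replicate number as a block, removal of each library's lowess trend on transcript length (span 0.3), a prior count of 2, and each library left out. The prior count of 2 alters only the fitted fold changes, so a call kept under it was fixed in advance. The method was tested on simulated counts.

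By rule, the genes named are METTL3, the 10 genes, and the called genes of each list, up to 12 per list. Other genes of the lists that were not called (TEAD2, the core kinases and adaptors, NF2, MYOF, AXL, DOCK5 and RBMS3) were named outside this rule, after their values were seen. Markers, untested list genes and overlapping genes are named as checks. The 10 genes and both lists, which were written from general knowledge, were chosen with earlier results of these data known. PTPN14 stands in both lists. Some marker genes are not reported here.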

Additional observations from a re-analysis of the deposited data

How the results depend on the processing

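CCN1 and METTL3 kept their direction and their call in each of the 14 alternatives, METTL3 with log2 fold changes from -2.52 to -2.33. TEAD1 lost its call with DESeq2 (log2 fold change -0.22, adjusted p = 0.0548) and with the length trend removed (-0.13), and AMOTL2 with DESeq2 (-0.22), with every gene kept that had a count (-0.23) and with the length trend removed (-0.17). The number of the 10 genes called lower was accordingly 2 with DESeq2 and 2 with the length trend removed, against 4. With the length trend removed 1 regulator was called higher. With library size alone, 561 genes of the whole table were called higher and 1328 lower, against 912 and 910, the median of all genes moved to -0.050, and WWTR1 changed sign (-0.0067). For all of these, the cause was not tested.

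In fits on 3 libraries the lone library of a group is assumed to vary like the other group. The log2 fold changes then ran from -0.32 to -0.11 (TEAD1), from -0.42 to -0.37 (CCN2), from -0.26 to -0.20 (AMOTL2) and from -0.042 to 0.27 (ANKRD1, below 0 also without shNC replicate 1, at -0.035). For genes not called they ran from 0.011 to 0.21 (TEAD4), from -0.19 to -0.0097 (LATS2), from -0.25 to -0.12 (TEAD3), from -0.099 to -0.046 (YAP1) and from 0.015 to 0.067 (WWTR1). The number of the 10 genes called lower ran from 1 (without sh812 replicate 1) to 4, and was 2 without sh812 replicate 2. Regulators called lower ran from 2 (without sh812 replicate 1) to 11 (without shNC replicate 2), and those called higher from 0 to 1 (without shNC replicate 2). Targets called lower ran from 3 to 6. Over the whole table the calls ran from 261 to 1703 higher and from 326 to 1549 lower, lowest without sh812 replicate 1 and highest without shNC replicate 2, and were 278 and 404 without sh812 replicate 2.

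The labels give both groups the replicate numbers 1 and 2. Across genes, libraries of the same number deviated from their group means with a correlation of 0.0164, so no pairing was seen. Under the replicate block, 4 of the 10 genes were again called lower, CCN1 had a log2 fold change of -0.43, CCN2 -0.39, TEAD1 -0.22 and AMOTL2 -0.23, and no call changed among METTL3, the 10 genes and the 8 called list genes. ANKRD1, with 124 to 154 counts per library, had the widest interval of the 10 genes. The length of the longest coding transcript, used as another scale for levels, was chosen after seeing the data.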
